A study of Homo sapiens with 12 samples.

Results

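OE21 is an established cell line from an esophageal squamous cell carcinoma, and its 6 expression arrays split into 2 sets that cut across the siRNA label. Set A holds siRNA 1, siRNA 2 and control 1, and set B holds siRNA 3, control 2 and control 3. The 6 arrays are all of the OE21 arrays among 12 in the study, whose other 6 come from OE33, a Barrett's adenocarcinoma line. The sets were read off the first principal component of these same arrays, so every value that sets A against B is a description and carries no test.

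Each set contains cells given the STAT3 siRNA and cells given the control siRNA. The siRNA cells received a pool of 4 sequences against STAT3 at 100 nM in 2 transfections. The control cells received a Silencer negative control siRNA, and their labels call the treatment a scrambled vector. OE21 was transfected with siPORT NeoFX and OE33 with DharmaFECT, and both lines grew in RPMI medium with fetal calf serum. RNA came from cells lysed 72 h after transfection began. The design text speaks of biologically independent experiments for the 3 replicates of a group. No label says what siRNA 1, siRNA 2 and control 1 would have in common, and all 12 arrays carry the same array identifier, so slide or hybridisation could not be tested as a batch. Untreated cells are not analysed here.

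Cells of squamous epithelium divide in a basal layer, where keratins 5, 14 and 15 are made, and later switch to the proteins of the cornified envelope, many of them encoded together in the epidermal differentiation complex. Signals from the EGF receptor through the MAP kinase cascade drive division and migration of such cells, while BMP signals act through SMAD proteins on the ID genes. Low oxygen acts through the HIF factors, and interferon acts through its receptors at the cell surface on a large antiviral programme.

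The level of a gene is given below as the log2 of its background-corrected and quantile-normalised intensity. A difference is the mean of set A minus the mean of set B on that scale, so that 1 unit is 2-fold. Set A holds more siRNA than control arrays and set B fewer, so a difference also carries part of any siRNA effect. For some lists the median is also given with siRNA in the fit, where both effects were estimated together. Sets are called not overlapping when all 3 arrays of one lie above all 3 of the other, and the gap is the distance between the nearest arrays of the sets. Of 11179 genes measured (detection p under 0.01 on at least 3 of the 6 arrays), 2038 did not overlap and were higher in set A (18.2%), and 2099 did not overlap and were lower in set A (18.8%), together 4137 (37%). Members of a gene list that lacked a named probe, or missed this detection rule, were not measured. Counts of list members without overlap are to be read beside the shares of 18.2% higher and 18.8% lower over all genes.

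The first principal component held 53.6% of the variance of the OE21 arrays. Its scores were 0.36 on siRNA 1, 0.51 on siRNA 2 and 0.35 on control 1 in set A, against -0.43 on siRNA 3, -0.36 on control 2 and -0.42 on control 3 in set B. The second component, with 22.7%, followed the label: the siRNA arrays 1, 2 and 3 lay at 0.34, 0.22 and 0.52, and control arrays 1, 2 and 3 lay at -0.60, -0.02 and -0.46. The sets were read off the first component, so their larger share of the variance follows from that choice.

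**Figure D1:**
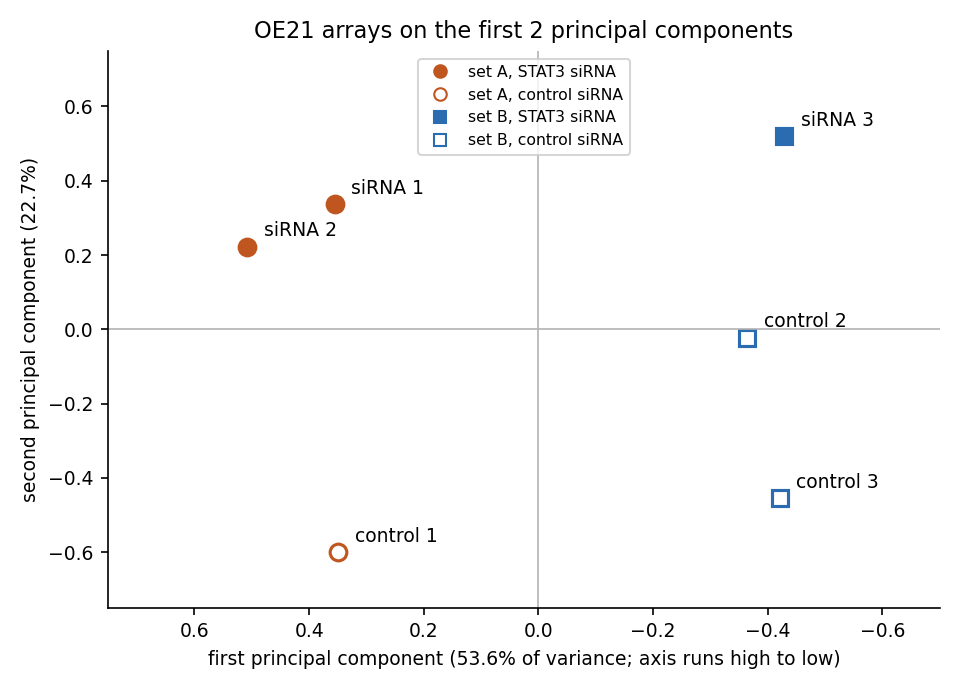
Scores of the 6 OE21 arrays on the first principal component (horizontal, 53.6% of variance, axis running high to low) and the second (vertical, 22.7%), computed over 11179 genes. Circles are set A, squares set B, filled marks siRNA and open marks control; the horizontal axis parts the sets and the vertical axis parts siRNA from control, with control 2 at -0.02.

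Distances between arrays come from the same values and restate this order. The root mean square log2 difference between arrays of different sets was 0.51 to 0.62 whether their labels differed (5 pairs) or matched (4 pairs, 0.52 to 0.59). Between arrays of the same set it was 0.36 to 0.43 where the labels differed (4 pairs) and 0.30 to 0.37 where they matched (2 pairs). Pairs across the sets differed by over 2-fold at 619 to 1084 genes, and pairs within a set at 76 to 369. Between set means, 452 genes differed by over 1 log2 unit, 297 of them higher and 155 lower in set A. The quartiles of the difference over all genes were -0.25 and 0.26.

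GPNMB, a membrane glycoprotein of lysosomes and the cell surface, was at 11.36, 11.83 and 11.84 on siRNA 1, siRNA 2 and control 1, against 8.06, 8.83 and 8.79 on siRNA 3, control 2 and control 3. It stood 8.67-fold higher in set A. The adaptor SH2D3C was at 7.90, 8.31 and 8.34 in set A, against 4.25, 4.95 and 4.82 in set B, where it was detected on 2 of 3 arrays. The gap of SH2D3C, 2.95 log2 units, was the widest of all genes measured after background correction. Its difference of 3.51 depended on that step and was 1.69 without it and 1.76 with the authors' normalised values, where GPNMB differed by 2.81 and 2.84. Galectin-7, a lectin of stratified epithelia, is represented by the near-identical genes LGALS7 and LGALS7B, whose probes cannot be told apart with confidence. LGALS7B was at 10.76, 11.40 and 10.23 in set A, against 7.41, 7.49 and 7.46 in set B. LY6D, a surface protein of keratinocytes, was at 9.73, 10.38 and 9.44 in set A, against 7.42, 7.66 and 6.92 in set B.

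The other end of the ranking held CEACAM6, an adhesion molecule of epithelial cells, at 5.84, 6.07 and 6.005 in set A, against 8.80, 8.18 and 7.87 in set B. The tight junction protein CLDN1 was at 7.78, 7.22 and 7.52 in set A, against 9.88, 9.99 and 9.21 in set B. SH2D5, an adaptor with an SH2 domain, was at 7.05, 6.80 and 6.52 in set A, against 8.53, 8.70 and 8.62 in set B. In each of these genes control 1 lay with set A and siRNA 3 with set B. The rule that chose the genes requires this. RNASE7, an antimicrobial ribonuclease of epithelia, was lower in set A by a difference of -2.49 and was detected there on 2 of 3 arrays. The chemokine gene CCL3L3, nearly identical in sequence to CCL3 and CCL3L1, had a difference of -2.70 and was likewise detected on 2 of 3 arrays of set A. Without background correction the differences were smaller, at -1.23 for RNASE7, -1.30 for CCL3L3 and -1.35 for CEACAM6.

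**Figure D2:**
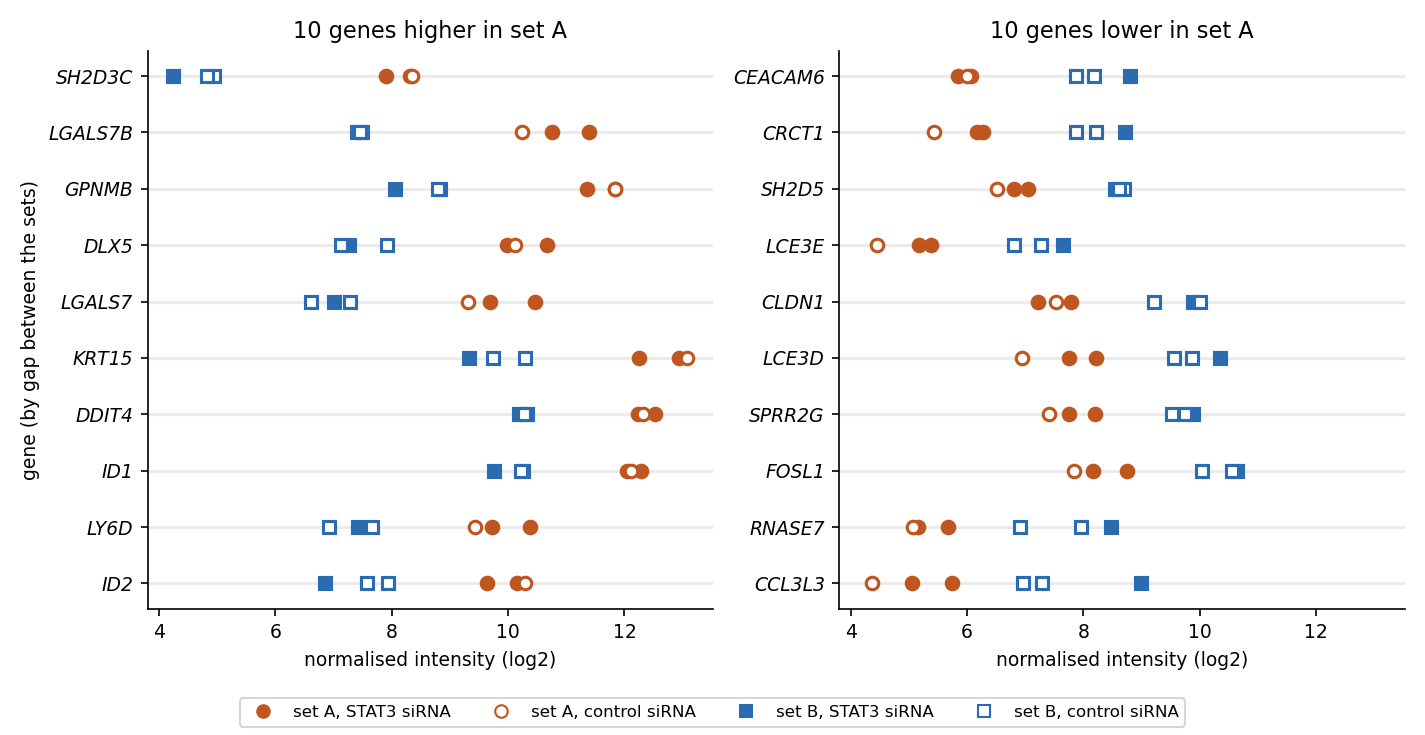
Normalised log2 intensity of the 10 genes with the widest gap higher in set A (left) and the 10 with the widest gap lower in set A (right), 1 mark per OE21 array. Circles are set A, squares set B, filled marks siRNA and open marks control; in all 20 genes the circles and squares occupy separate ranges, as the rule that chose the genes requires.

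Genes of DNA replication were lower in set A. Of 44 listed genes 40 were measured, and in 35 of them the sets did not overlap, all lower in set A, beside 18.8% of all genes; 0 were higher without overlap. The median difference of the list was -0.51, against 0.00 over all genes, and its mean level was -0.23, -0.39 and -0.20 on siRNA 1, siRNA 2 and control 1, against 0.24, 0.31 and 0.27 on siRNA 3, control 2 and control 3, measured from the mean of the 6 arrays. CDT1, which loads the replicative helicase onto origins, was at 10.37, 10.25 and 10.26 in set A, against 11.41, 11.28 and 11.23 in set B. RRM2, the inducible subunit of ribonucleotide reductase, was at 7.58, 7.67 and 7.63 in set A, against 8.61, 8.59 and 8.49 in set B. Within each set the 3 arrays lay close together beside the distance between the sets, and control 1 lay with siRNA 1 and siRNA 2. For CDT1 and RRM2 the choice by widest gap requires that control 1 does so.

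ORC1, a subunit of the origin recognition complex, had a difference of -0.84, and the helicase subunits MCM2, MCM3, MCM4, MCM5, MCM6 and MCM7 had differences of -0.75, -0.42, -0.51, -0.87, -0.62 and -0.38. All 6 of these MCM genes were without overlap. The polymerase clamp PCNA differed by -0.39 and thymidylate synthase TYMS by -0.70. Cyclin E1, CCNE1, which drives entry into S phase, was among the 5 genes of the list whose sets overlapped, with 7.94, 7.96 and 7.59 in set A, against 8.71, 8.78 and 7.90 in set B. E2F1, CDC6, RFC5 and SLBP were the other 4.

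E2F factors are known to drive many genes of this list, and the letters of their motif, TTCCCGC or TTGGCGC on either strand, were found in 25 of the 36 promoters of measured members in the RefSeq table (69.4%). The same letters were in 12.3% of the 15843 promoters of protein-coding genes in that table. Promoters here run from 250 bases before to 50 bases after the annotated start, on GRCh38.p14. The CDT1 promoter, chr16:88803539-88803838 on the plus strand, is shown for the gene of the list with the widest gap. Its capitals mark 2 matches, written as the reverse complement.
CDT1: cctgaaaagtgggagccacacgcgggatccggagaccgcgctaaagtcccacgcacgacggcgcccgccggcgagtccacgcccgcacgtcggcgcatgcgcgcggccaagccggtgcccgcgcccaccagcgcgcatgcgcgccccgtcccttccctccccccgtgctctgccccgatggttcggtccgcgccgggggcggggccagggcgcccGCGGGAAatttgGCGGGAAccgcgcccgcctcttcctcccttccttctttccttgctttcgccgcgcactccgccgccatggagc
A match is a count of letters and not a binding site, and the list was drawn up from knowledge of these genes.

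Ribosome biogenesis followed the same direction. Of 30 listed genes of MYC and ribosome biogenesis 27 were measured, 24 of them lower in set A without overlap and 0 higher, beside 18.8% of all genes, with a median difference of -0.62. PES1, a factor of large-subunit assembly, was at 8.19, 8.26 and 8.32 in set A, against 9.10, 9.02 and 9.06 in set B. NOLC1, a nucleolar chaperone of small ribonucleoproteins, was at 7.83, 7.88 and 8.27 in set A, against 8.90, 9.04 and 9.13 in set B. MYC itself was at 10.75, 10.54 and 10.59 in set A, against 11.22, 10.78 and 11.31 in set B, with a gap of only 0.03 log2 units. The ribosomal proteins themselves differed little: 37 of 42 were measured, 8 were lower in set A without overlap and 0 higher, and their median difference was -0.01. Their share lower, 21.6%, was near the 18.8% of all genes.

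The E-box CACGTG, the letters that MYC with its partner MAX binds, was found in 7 of 21 promoters of this list (33.3%). It was in 8.88% of all promoters in the table and 10.5% of those of measured genes. PES1, chr22:30591861-30592160 on the minus strand, holds 1 match, in capitals, which lies after the annotated start.
PES1: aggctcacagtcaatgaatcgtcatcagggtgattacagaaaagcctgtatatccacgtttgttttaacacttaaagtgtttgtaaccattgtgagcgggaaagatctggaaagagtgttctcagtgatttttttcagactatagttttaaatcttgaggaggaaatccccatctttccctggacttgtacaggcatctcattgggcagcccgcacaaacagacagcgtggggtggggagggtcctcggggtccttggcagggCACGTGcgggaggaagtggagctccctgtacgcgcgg
Nothing is drawn here about the factor.

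Mitotic genes separated the sets less cleanly. All 51 listed were measured. In set A 21 were lower without overlap (41.2%, beside 18.8% of all genes) and 0 higher, and 30 overlapped. The median difference was -0.31, or -0.24 with siRNA in the fit. CDCA5, a cohesion factor, was at 11.79, 11.64 and 11.73 in set A, against 12.34, 12.24 and 12.35 in set B. The chromosomal passenger protein BIRC5 differed by -0.64, the checkpoint protein MAD2L1 by -0.52 and the ubiquitin-conjugating enzyme UBE2C by -0.43. The list's mean level, however, was -0.19, -0.27 and 0.06 on siRNA 1, siRNA 2 and control 1, against -0.02, 0.14 and 0.27 on siRNA 3, control 2 and control 3. In each set the siRNA arrays thus lay below the control arrays, and the level of control 1 in set A was above that of siRNA 3 in set B.

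Regulators of G1 did not move as a group. Of 21 listed 17 were measured, with a median difference of -0.21. In set A 4 were higher (23.5%) and 8 lower (47.1%) without overlap, beside 18.2% and 18.8% of all genes. The pocket protein RBL1 was at 5.93, 5.64 and 5.94 in set A, against 6.88, 7.20 and 6.75 in set B. CCNG2, a cyclin induced when cells leave the cycle, was at 5.56, 5.56 and 5.47 in set A, against 4.39, 4.53 and 4.86 in set B. In set B it was detected on only 1 of 3 arrays. Canonical histone genes went the other way from replication genes, with 19 of 29 listed genes measured and a median of 0.42. In set A 8 were higher without overlap (42.1%, beside 18.2% of all genes) and 0 lower. H4C14 was at 8.18, 8.45 and 8.04 in set A, against 6.96, 6.95 and 6.79 in set B. H2AC18 and H2BC21 differed by 1.29 and 1.31. Histone genes are near copies of each other, so their probes may share signal.

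Genes of EGF receptor signalling and MAP kinase output were lower in set A. This list of 30 was drawn up after the values had been seen, so its counts only restate the choice: of 26 measured, 21 were lower in set A without overlap and 1 higher, with a median of -1.21. Among the ligands, heparin-binding EGF, HBEGF, was at 8.31, 8.24 and 7.73 in set A, against 10.20, 9.09 and 9.20 in set B. TGFA was at 8.21, 7.41 and 7.63 in set A, against 9.49, 8.88 and 8.66 in set B. Epiregulin, EREG, was not detected on any array of set A and was at least 1.78-fold lower there. Betacellulin, BTC, was the 1 member higher in set A, by 0.68. The receptor EGFR was at 12.65, 12.56 and 12.58 in set A, against 12.78, 12.76 and 12.96 in set B, a difference of -0.24.

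Feedback inhibitors of the cascade were lower with the ligands. The ERK phosphatase DUSP6 was at 7.49, 6.74 and 6.20 in set A, against 9.32, 8.42 and 8.87 in set B. Its relative DUSP5 differed by -1.46, and the Sprouty proteins SPRY2 and SPRY4 by -1.50 and -1.92. SPRY4 was detected on only 1 of 3 arrays of set A. Transcription factors below ERK moved likewise: FOSL1, a subunit of AP-1, was at 8.74, 8.16 and 7.84 in set A, against 10.64, 10.03 and 10.56 in set B, 4.47-fold lower in set A. The ETS factors ETV4 and ETV5 differed by -1.36 and -1.33, and cyclin D1, CCND1, by -0.70. EPHA2, an ephrin receptor, was at 6.60, 6.50 and 6.43 in set A, against 8.21, 7.77 and 8.22 in set B, and the chromatin protein HMGA2 at 5.66, 5.60 and 5.39 in set A, against 7.06, 7.15 and 6.82 in set B. IL1RL1, the receptor for interleukin-33, was not detected in set A on its brightest probe, which was at least 3.52-fold lower there, while a second probe of the gene differed by only -0.90.

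Lists of neighbouring programmes shared members with this one. Of 24 listed immediate-early genes 20 were measured, 10 of them lower (50%, beside 18.8% of all genes) and 1 higher in set A without overlap. The median was -0.52, or -0.66 with siRNA in the fit. PHLDA1, an early growth factor response gene, was at 11.13, 10.45 and 10.46 in set A, against 12.55, 11.73 and 12.24 in set B. Of 28 YAP and serum response targets 21 were measured, with a median of -0.28. In set A 10 were lower without overlap (47.6%, beside 18.8% of all genes) and 0 higher. The matricellular protein CCN1 was at 8.84, 8.22 and 8.15 in set A, against 10.59, 9.92 and 10.80 in set B. The ectonucleotidase NT5E was at 8.36, 7.64 and 8.01 in set A, against 9.72, 9.46 and 9.74 in set B, and tissue factor F3 differed by -1.56. In both lists the level of siRNA 3 was the highest of the 6 arrays and that of control 1 the lowest.

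The squamous programme split in 2 directions. Basal keratinocyte genes were more often higher than lower in set A: of 22 listed 16 were measured, 12 of them with a difference above 0. Without overlap 6 were higher (37.5%) and 2 lower (12.5%), beside 18.2% and 18.8% of all genes, and 8 overlapped. The median was 0.32 and the lowest difference -0.62. Keratin 15, KRT15, was at 12.25, 12.93 and 13.08 in set A, against 9.32, 9.74 and 10.29 in set B, 7.83-fold higher in set A. Keratin 5, KRT5, was at 13.12, 13.46 and 13.29 in set A, against 11.999, 12.40 and 12.38 in set B. The desmosomal cadherins DSG3 and DSC3 differed by 1.06 and 0.86, keratin 14, KRT14, by 1.22 and the squamous lineage factor SOX2 by 0.96. Integrins of the basal layer did not follow: ITGA6, ITGB4, ITGA3 and ITGB1 differed by 0.47, 0.19, 0.22 and -0.04, all with overlapping sets.

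Small proteins of the cornified envelope were lower in set A. Of 39 listed genes of the epidermal differentiation complex, also listed after the values had been seen, 17 were measured, 14 of them lower in set A without overlap and 1 higher, with a median of -1.27. CRCT1 was at 6.16, 6.28 and 5.43 in set A, against 8.71, 8.22 and 7.87 in set B. The late envelope gene LCE3D was at 7.76, 8.22 and 6.94 in set A, against 10.34, 9.87 and 9.55 in set B, and LCE3E was detected on 2 of 3 arrays of set A with a difference of -2.25. Among the small proline-rich proteins, SPRR2G was at 7.75, 8.19 and 7.41 in set A, against 9.88, 9.74 and 9.52 in set B. SPRR2B, SPRR2C and SPRR2D differed by -1.36, -1.33 and -1.23, but these genes are near copies and their probes may cross-hybridise. SPRR1B overlapped, at 11.21, 11.57 and 10.90 in set A, against 11.51, 11.52 and 10.78 in set B. KPRP was not detected in set A and was at least 3.61-fold lower there.

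AP-1 is known to act on this gene cluster, and its letters TGACTCA were found in 5 of the 13 promoters of measured members (38.5%). They were in 3.66% of all promoters and 3.34% of those of measured genes. In the list of EGF receptor signalling they were in 1 of 16 promoters (6.25%). Among members lower in set A without overlap, matches were found for SPRR2F, SPRR3 and SPRR2A. SPRR2F, shown for the widest gap of these, was at 9.80, 9.89 and 9.94 in set A, against 10.92, 10.82 and 10.53 in set B. Its promoter at chr1:153113467-153113766 on the minus strand holds 1 match, in capitals as the reverse complement.
SPRR2F: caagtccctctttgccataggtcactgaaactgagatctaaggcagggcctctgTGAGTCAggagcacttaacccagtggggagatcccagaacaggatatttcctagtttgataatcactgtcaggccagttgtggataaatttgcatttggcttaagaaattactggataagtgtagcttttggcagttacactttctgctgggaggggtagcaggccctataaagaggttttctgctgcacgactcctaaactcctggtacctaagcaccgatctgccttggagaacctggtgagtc
The match says nothing of whether FOSL1 or another AP-1 subunit is there in OE21 cells.

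Late differentiation taken more widely did not go one way. In the broader list of 50 genes 37 were measured, with a median of -0.04, or -0.18 with siRNA in the fit. In set A 6 were higher (16.2%) and 13 lower (35.1%) without overlap, beside 18.2% and 18.8% of all genes. The protease KLK5 was at 6.21, 6.67 and 6.004 in set A, against 8.43, 7.91 and 7.73 in set B. Corneodesmosin, CDSN, differed by -1.55 and the iron-siderophore binding protein LCN2 by -1.50. Keratin 16, KRT16, and transglutaminase 1, TGM1, were higher in set A by 1.48 and 1.05, with sets that did not overlap. Keratin 13, KRT13, was at 10.59, 11.23 and 12.11 in set A, against 10.03, 10.51 and 9.96 in set B.

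Cell type markers were read on the same arrays. All 12 squamous markers with a named probe were detected in OE21. Without overlap 9 of them were higher in set A and 2 lower, and 1 overlapped. Their median difference was 0.93 and the lowest -0.75. The summed linear intensity was 29348 to 37185 in set A, 15035 to 18394 in set B and 2259 to 2556 on the OE33 arrays. Such a sum gives most weight to bright genes. KRT5 had a mean log2 level of 13.29 in set A and 12.26 in set B. KRT15, itself among the genes chosen by widest gap, had 12.75 and 9.78. Of 18 columnar markers 2 were detected in OE21, AGR2 and FOXA2, and they went opposite ways. FOXA2 differed by -1.43 and AGR2 by 1.42, while a second AGR2 probe differed by -0.35. The whole list, mostly undetected genes, summed to 641 to 861 in set A, 891 to 1167 in set B and 1938 to 2241 on the OE33 arrays. CDX1, CDX2 and VIL1 were detected on no OE21 array. Of 11 leukocyte markers 5 were detected, CD14, CD68, CSF1R, ITGAM and LYZ, with a sum of 3760 to 4658 in set A and 2611 to 3084 in set B. PTPRC, CD3D and CD3E were detected on no OE21 array. Fibroblast and endothelial lists had 2 of 10 and 1 of 8 detected. In bulk RNA, more cells of a kind and more RNA per cell cannot be told apart, and the part of these marker shifts in the results was not tested.

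BMP target genes were higher in set A. The list was again drawn up after the values were seen; 12 of 20 were measured, 8 higher in set A without overlap and 0 lower, with a median of 0.82. ID1, an inhibitor of basic helix-loop-helix factors, was at 12.04, 12.28 and 12.12 in set A, against 9.76, 10.26 and 10.22 in set B. ID2 was at 9.64, 10.15 and 10.28 in set A, against 6.85, 7.58 and 7.94 in set B, and ID3 differed by 1.54. The inhibitory SMAD6 was at 8.45, 9.06 and 8.87 in set A, against 6.67, 6.16 and 6.79 in set B. The homeobox gene DLX5 was at 9.98, 10.68 and 10.12 in set A, against 7.26, 7.92 and 7.12 in set B. SMAD7, which TGF-beta and BMP both induce, overlapped at 6.61, 7.18 and 6.91 in set A, against 6.94, 6.57 and 7.20 in set B. The letters GGCGCC, a GC-rich sequence that SMAD proteins bind, were in 1 of 9 promoters of this list (11.1%). They were in 25.2% of all promoters and 30.8% of those of measured genes.

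The TGF-beta list contains the same ID genes and SMAD6 and had 7 of 16 measured members (19 listed) higher in set A without overlap and 1 lower. These are 43.8% and 6.25%, beside 18.2% and 18.8% of all genes. Its median difference was -0.02 while its mean level differed by 0.49, so the median and the mean had opposite signs. In OE21 the members common to both lists carried the higher mean.

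Genes induced by low oxygen were higher in set A. Of 36 listed 30 were measured, 17 higher in set A without overlap, beside 18.2% of all genes, and 1 lower, with a median of 0.47. Their mean level was 0.26, 0.39 and 0.16 on siRNA 1, siRNA 2 and control 1, against -0.19, -0.29 and -0.35 on siRNA 3, control 2 and control 3. DDIT4, an inhibitor of mTORC1 that low oxygen and other stresses induce, was at 12.23, 12.52 and 12.33 in set A, against 10.19, 10.33 and 10.28 in set B, 4.27-fold higher in set A. The lipoprotein receptor VLDLR was at 7.33, 7.59 and 7.37 in set A, against 5.79, 6.38 and 6.26 in set B. The glucose transporter SLC2A1 was at 12.81, 13.06 and 12.72 in set A, against 11.72, 11.89 and 11.64 in set B. All 3 genes were named for their wide gap, so control 1 had to lie with set A and siRNA 3 with set B.

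Other well known HIF targets varied. The stress protein NDRG1, the mitophagy receptor BNIP3, carbonic anhydrase CA12 and the collagen cross-linking enzyme LOX were higher in set A by 0.92, 0.81, 1.12 and 1.36 without overlap. VEGFA was at 6.40, 6.78 and 6.37 in set A, against 7.47, 6.65 and 7.33 in set B, and hexokinase HK2, ERO1A, ANKRD37 and EGLN1 also overlapped, with differences of -0.11, -0.04, 0.09 and 0.32. Stanniocalcin STC2 was the 1 member lower in set A without overlap, with a difference of -0.61.

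The core of the HIF response element, ACGTG or GCGTG on either strand, was in 24 of 25 promoters of the measured members (96.0%). It was in 55.9% of all promoters and 63.2% of those of measured genes, so these letters are common in promoters. DDIT4, shown as the member with the widest gap, lies at chr10:72273674-72273973 on the plus strand, with 4 matches in capitals.
DDIT4: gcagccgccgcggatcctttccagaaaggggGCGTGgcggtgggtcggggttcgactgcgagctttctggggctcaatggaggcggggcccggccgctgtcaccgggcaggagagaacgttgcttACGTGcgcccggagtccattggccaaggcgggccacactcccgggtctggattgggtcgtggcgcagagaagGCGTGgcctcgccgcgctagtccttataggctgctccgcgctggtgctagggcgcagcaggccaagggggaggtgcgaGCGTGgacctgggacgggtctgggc

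Glycolytic genes differed less than the hypoxia list. Of 21 listed 19 were measured, with a median of 0.22. In set A 9 were higher (47.4%) and 2 lower (10.5%) without overlap, beside 18.2% and 18.8% of all genes. Aldolase C, ALDOC, was at 10.92, 11.37 and 10.79 in set A, against 9.50, 8.9999 and 9.39 in set B. The liver-type phosphofructokinase PFKL was higher in set A by 0.70, while the platelet-type PFKP differed by -0.35. Genes that respond to glucose or to FOXO factors had 9 higher (50%) and 2 lower (11.1%) of 18 measured among 22. Their median was 0.61, or 0.51 with siRNA in the fit. TXNIP, which restrains glucose uptake, was at 11.41, 11.58 and 11.51 in set A, against 10.02, 10.38 and 10.55 in set B, and the ubiquitin ligase FBXO32 at 11.57, 12.05 and 11.62 in set A, against 10.56, 9.95 and 9.40 in set B. Respiratory chain genes had 7 of 37 measured (41 listed) higher in set A without overlap and 0 lower, with a median of 0.08. Their share higher, 18.9%, was near the 18.2% of all genes.

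Sterol and fatty acid synthesis was higher in set A. Of 32 listed SREBP targets 25 were measured, and 16 were higher without overlap and 1 lower, beside 18.2% and 18.8% of all genes, with a median of 0.34. SREBF1, the factor that drives lipid synthesis, was at 10.29, 10.53 and 10.32 in set A, against 8.64, 8.51 and 9.15 in set B. Its retention protein INSIG1 was at 10.29, 10.37 and 10.46 in set A, against 9.56, 8.80 and 9.62 in set B. The desaturases SCD and FADS1 differed by 1.03 and 1.11, fatty acid synthase FASN by 0.75 and lanosterol synthase LSS by 0.87. Lysosome and autophagy genes had 11 higher (42.3%) and 1 lower of 26 measured among 30, with a median of 0.23. They were led by the protease cathepsin D, CTSD, at 9.26, 9.46 and 9.06 in set A, against 8.03, 8.37 and 7.96 in set B. The lysosomal regulator TFEB was not detected in set B and was at least 1.58-fold higher in set A.

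Interferon-stimulated genes were higher in set A and also followed the siRNA label. Of 55 listed 52 were measured, 35 of them higher in set A without overlap, beside 18.2% of all genes, and 0 lower, with a median of 0.64. GBP2, a guanylate-binding protein, was at 9.78, 10.05 and 9.53 in set A, against 8.35, 7.61 and 7.64 in set B. BST2, which tethers budding virions, was at 11.29, 11.38 and 10.57 in set A, against 9.63, 8.79 and 9.45 in set B. TRIM22 and IFITM1, both restriction factors, differed by 1.20 and 1.22.

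The mean level of the interferon list was 0.50, 0.51 and 0.06 on siRNA 1, siRNA 2 and control 1, against -0.04, -0.73 and -0.30 on siRNA 3, control 2 and control 3. Control 1 was thus the lowest array of set A and siRNA 3 the highest of set B. With siRNA in the same fit the set difference had a median of 0.55, between siRNA arrays alone it was 0.52 and between control arrays alone 0.56. With the set in the fit, the siRNA difference had a median of 0.39. MX2, a dynamin-like antiviral protein, shows both: it was at 10.29, 10.57 and 9.43 in set A, against 9.52, 7.89 and 8.80 in set B. In both sets the mean of the siRNA arrays was above that of the control arrays for 50 of the 52 genes, beside 33.2% of all genes.

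The interferon-stimulated response element, GAAA and GAAA parted by any 2 bases, was found on either strand in 29 of the 43 promoters of measured members (67.4%). It was in 3.17% of all promoters and 3.01% of those of measured genes. BST2 is shown as the member with the widest gap among those with a match. Its promoter, chr19:17405581-17405880 on the minus strand, holds 2 matches that overlap and are written in capitals as 1 run.
BST2: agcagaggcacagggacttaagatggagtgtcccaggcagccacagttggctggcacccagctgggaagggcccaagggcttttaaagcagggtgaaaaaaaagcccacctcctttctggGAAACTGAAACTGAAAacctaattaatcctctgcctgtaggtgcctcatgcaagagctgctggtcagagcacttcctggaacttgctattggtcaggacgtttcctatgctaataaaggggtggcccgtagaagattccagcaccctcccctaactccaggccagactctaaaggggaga

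Antigen presentation genes had 11 of 19 measured (23 listed) higher in set A without overlap and 0 lower, with a median of 0.34. The share higher was 57.9%, beside 18.2% of all genes. The class I genes HLA-E, HLA-F, HLA-C and HLA-B differed by 0.64, 0.70, 0.74 and 0.54, and since class I genes are alike their probes may share signal. NF-kB and cytokine genes went the other way: 7 of 23 measured (30 listed) were lower in set A without overlap and 1 higher. The share lower was 30.4%, beside 18.8% of all genes. The median was -0.44, or -0.42 with undetected genes at their bound, and -0.56 with siRNA in the fit. The median was -0.17 without control 1 and -0.16 without siRNA 3. Interleukin 6, IL6, was at 6.59, 6.09 and 5.55 in set A, against 9.74, 7.49 and 7.89 in set B. The NF-kB subunit NFKB2 was at 6.92, 6.22 and 6.32 in set A, against 7.70, 7.50 and 7.23 in set B. In this list the mean levels of the sets overlapped, with 0.11, -0.07 and -0.62 on siRNA 1, siRNA 2 and control 1, against 0.67, -0.03 and -0.06 on siRNA 3, control 2 and control 3.

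Stress programmes other than hypoxia differed in size and direction. Over all genes 18.2% were higher and 18.8% lower in set A without overlap. Counts here are over the measured members, which were 20 of 23, 26 of 29, 20 of 21, 21 of 25, 18 of 25, 9 of 12, 19 of 29 and 30 of 38 in the order of the lists named. Unfolded protein response genes had 1 higher and 3 lower of 20 and a median of -0.01. Amino acid and ATF4 response genes had 5 higher and 8 lower of 26. NUPR1 was at 7.48, 7.99 and 6.90 in set A, against 5.01, 4.83 and 5.57 in set B, where it was detected on 2 of 3 arrays. ATF3 was at 7.03, 7.07 and 6.91 in set A, against 9.32, 7.58 and 8.51 in set B. Heat shock genes had 3 higher and 9 lower of 20, with a median of -0.32, or -0.21 with siRNA in the fit. Their mean levels overlapped between the sets: the chaperone HSPA8 differed by -0.80 and the small heat shock protein HSPB1 by 0.95. NRF2 targets had 3 higher and 2 lower of 21, led by the aldo-keto reductase AKR1B10 at 12.38, 12.75 and 12.86 in set A, against 10.70, 11.27 and 11.49 in set B. Targets of p53 had 4 higher and 5 lower of 18, metallothioneins and metal response genes 0 higher and 4 lower of 9, mesenchymal genes 2 higher and 4 lower of 19, and STAT3 targets 6 higher and 7 lower of 30. For p53 targets these are 22.2% and 27.8%, and for STAT3 targets 20% and 23.3%, not far from the shares of all genes. The metallothionein list had a median of -0.49, and its mean level was -0.29, -0.27 and -0.12 on siRNA 1, siRNA 2 and control 1, against 0.29, -0.07 and 0.45 on siRNA 3, control 2 and control 3, so that its mean did not overlap between the sets.

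**Figure D3:**
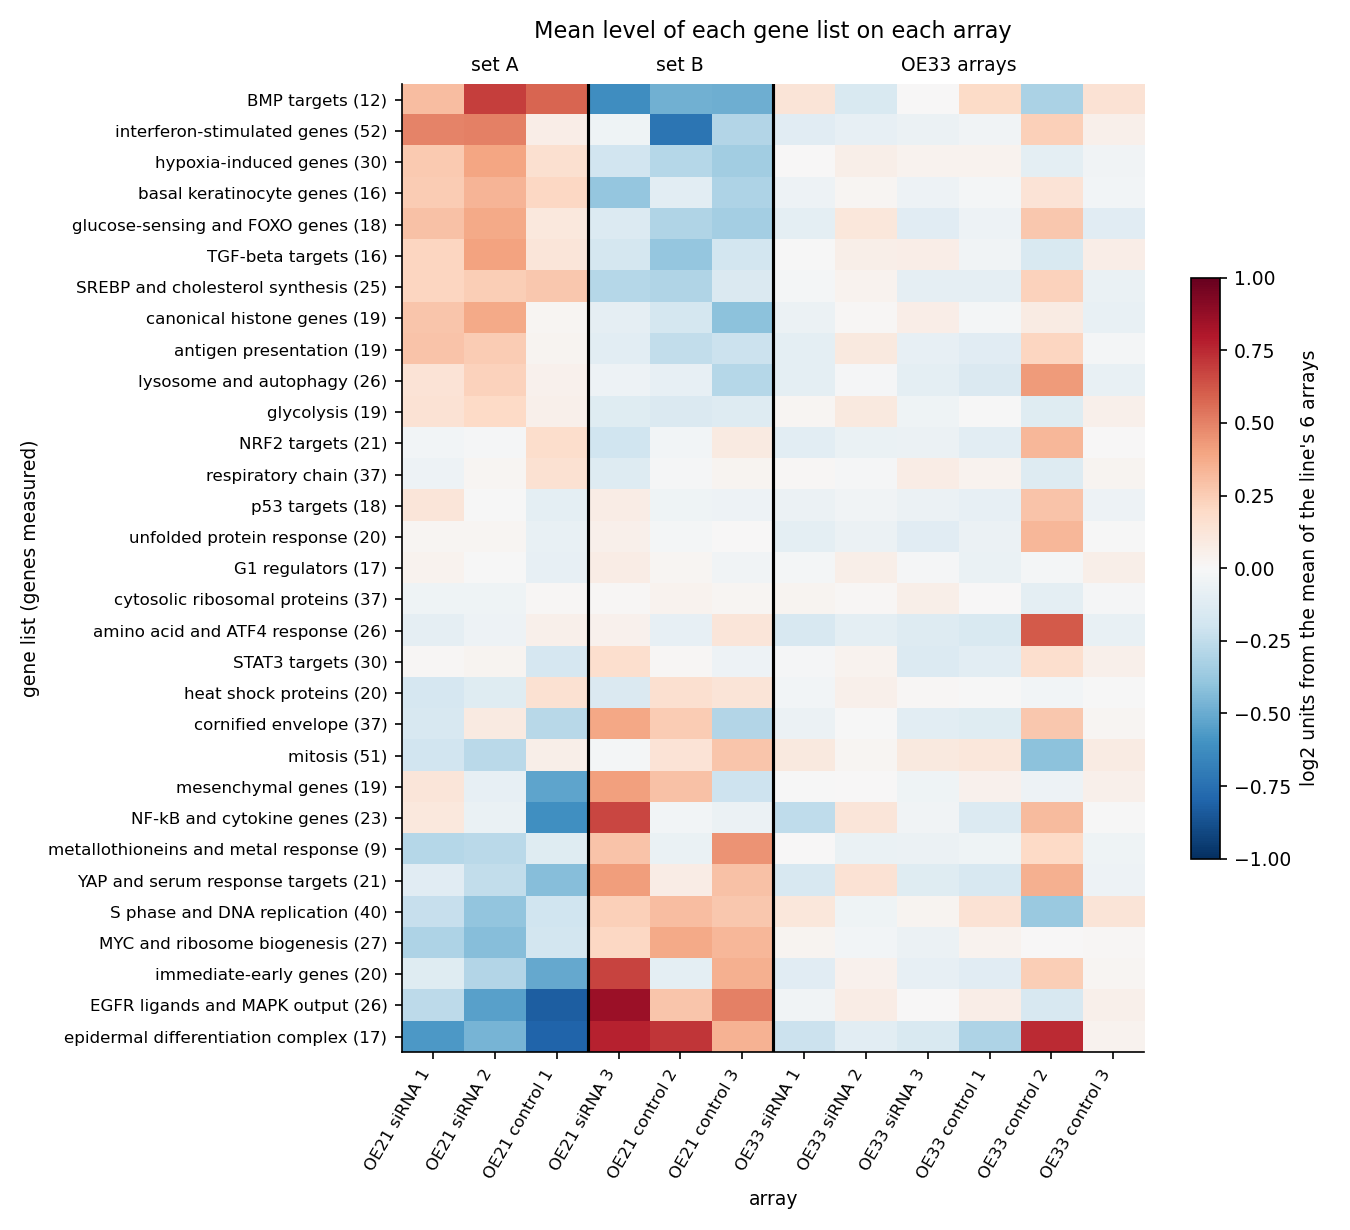
Mean log2 level of each gene list on each of the 12 arrays, as the distance from the mean of the 6 arrays of the same line, with red above and blue below; numbers of genes measured stand in brackets. Columns 1 to 3 are set A, columns 4 to 6 set B and the rest OE33. Lists near the top (BMP, interferon, hypoxia) are red in set A and blue in set B, and lists near the bottom (epidermal differentiation complex, EGF receptor, ribosome biogenesis, S phase) the reverse. The BMP, EGF receptor and epidermal differentiation complex lists were drawn up after the values had been seen, so their places follow from that choice.

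STAT3 itself followed the label and not the sets. Its level was 6.76, 6.77 and 7.47 on siRNA 1, 2 and 3 (6.999 ± 0.41, SD, n = 3), against 9.23, 8.90 and 9.24 on control 1, 2 and 3 (9.12 ± 0.19, SD, n = 3). The siRNA arrays of both sets lay below all controls, on all 3 probes of the gene. The difference was -2.12 (SE 0.23), with a limma adjusted p of 0.278 over 11179 genes.

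Because each set holds both labels, the siRNA comparison can be made within sets. This fit was prompted by the same arrays that showed the sets, so its p-values are not independent of that choice. With the array set as a block, the median residual SD per gene was 0.16, against 0.24 without it. Limma called 0 genes at an adjusted p under 0.05 in either fit (0% of genes), with 2150 at an unadjusted p under 0.05 with the block (19.2%) and 1259 without it (11.3%). The smallest adjusted p was 0.0985 with the block, where 83 genes had one under 0.1, and 0.278 without it. STAT3 was at -2.03 (SE 0.22, limma adjusted p = 0.0985) with the block.

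The genes below are among those with the smallest p in the fit with the block. Their small SE there, and the order of the labels within sets, thus follow from that choice. Interleukin 1 beta, IL1B, was at 10.22 and 9.71 on the siRNA arrays and 8.002 on the control array of set A, and at 11.92 on the siRNA array and 10.31 and 10.16 on the control arrays of set B. Its siRNA difference was 1.82 (SE 0.17, limma adjusted p = 0.0985) with the block and 1.12 (SE 0.78) without it. CRIP2, a LIM domain protein, was at 8.32 and 8.63 on the siRNA arrays and 9.85 on the control array of set A, and at 6.19 on the siRNA array and 7.65 and 7.82 on the control arrays of set B. Its difference was -1.46 (SE 0.14, limma adjusted p = 0.0985) with the block and -0.73 (SE 0.81) without it. In both genes siRNA 3 lay on the side of its label within set B. With siRNA in the fit the set difference was -2.09 for IL1B and 2.20 for CRIP2, in both larger in size than the siRNA difference with the block.

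The other genes with the smallest p in that fit were the exonuclease ISG20 at 1.25 (SE 0.11), the guanylate-binding protein GBP5 at 1.41 (SE 0.15), the neurofilament NEFL at -1.46 (SE 0.13) and MAEA, a subunit of a ubiquitin ligase, at -1.33 (SE 0.12). Each had a limma adjusted p of 0.0985. Without the block ISG20, GBP5, NEFL and MAEA were at 1.46 (SE 0.26), 1.75 (SE 0.39), -1.08 (SE 0.44) and -1.28 (SE 0.14), so MAEA changed little. For NF-kB and cytokine genes 21 of 23 had a higher mean on the siRNA arrays in both sets, beside 33.2% of all genes, with a median siRNA difference of 0.49 with the block and 0.41 without it. Immediate-early genes had a median of 0.46 with the block and 0.13 without it, and genes of EGF receptor signalling 0.45 and 0.00.

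For replication genes the order was the reverse. Their median siRNA difference was -0.24 without the block and -0.04 with it, and the mean of the siRNA arrays was below that of the controls in both sets for 18 of 40 and above it for 10. Mitotic genes kept a median of -0.29 with the block and -0.30 without it, with 43 of 51 lower on the siRNA arrays in both sets, beside 34.2% of all genes. Heat shock genes were lower on the siRNA arrays in both sets for 19 of 20, with a median of -0.26 with the block. Respiratory chain genes were lower in both for 28 of 37, with a median of -0.17.

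**Figure D4:**
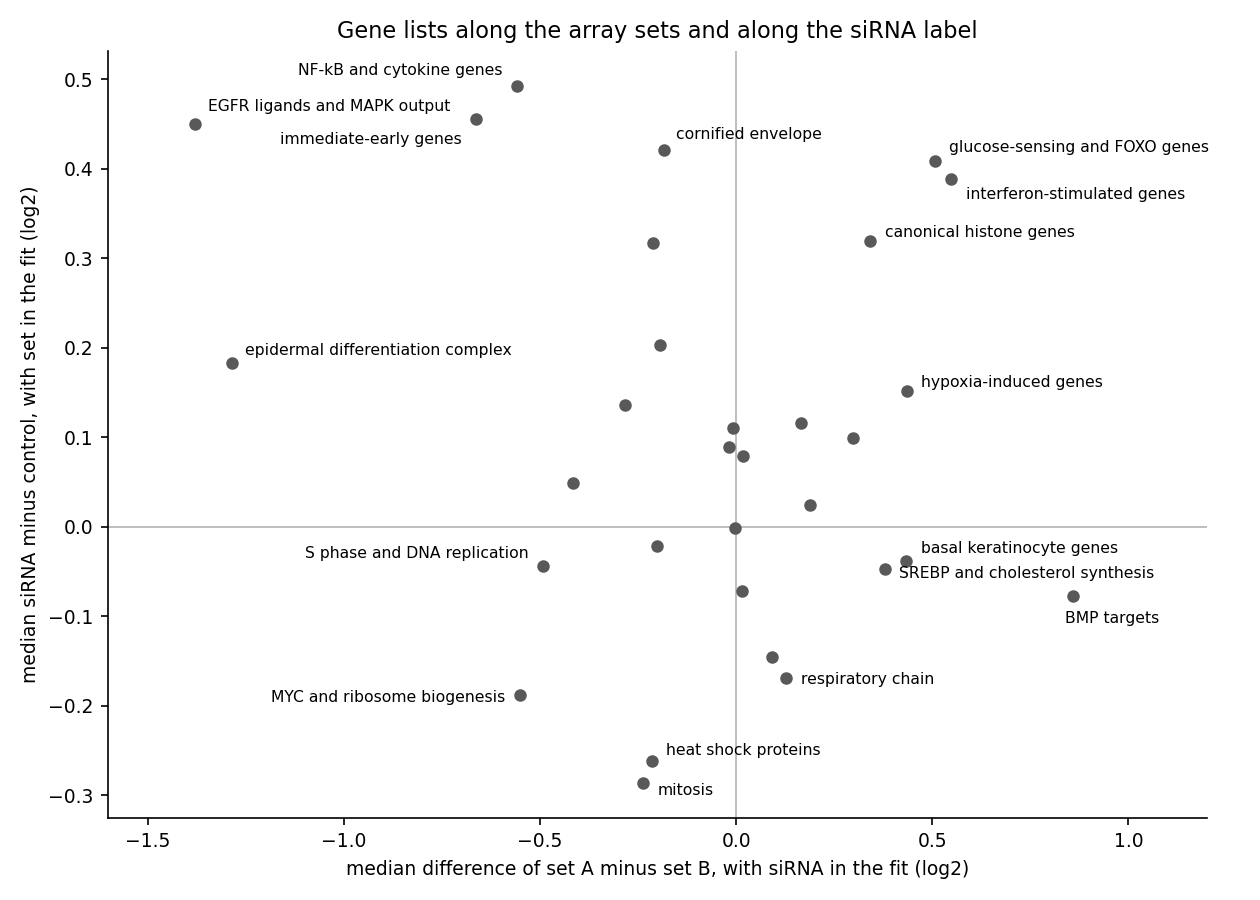
Median difference of set A minus set B with siRNA in the fit (horizontal, log2) against the median siRNA minus control difference with the set in the fit (vertical, log2), 1 point per gene list. S phase and ribosome biogenesis lie to the left near a siRNA difference of -0.04 and -0.19, the BMP list to the right at -0.08, interferon to the right at 0.39 and mitosis at the bottom at -0.29. The BMP, EGF receptor and epidermal differentiation complex lists were drawn up after the set values had been seen, so their horizontal places follow from that choice.

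Over all genes that parted the OE21 sets together, the OE33 arrays lay close to each other. The mean of all genes higher in set A minus the mean of all genes lower in set A, each from the mean of its line, was 0.52, 0.69 and 0.52 on siRNA 1, siRNA 2 and control 1, against -0.59, -0.54 and -0.59 on siRNA 3, control 2 and control 3 of OE21. It was 0.03, 0.01 and 0.01 on OE33 siRNA 1, 2 and 3, and -0.01, -0.02 and -0.02 on OE33 control 1, 2 and 3. The genes were chosen on the OE21 arrays, so the contrast between the lines is a description. Of the genes higher in set A 1709 of 2038 were also detected in OE33, and of those lower in set A 1980 of 2099. DDIT4 spanned 10.72 to 11.05, FOSL1 9.88 to 10.22 and KRT15 10.19 to 10.83 over the 6 OE33 arrays, while DLX5, LY6D, LCE3D and SPRR2G were not detected there. Other genes ranged more widely over the OE33 arrays: RNASE7 spanned 4.99 to 7.45 and CLDN1 9.70 to 11.78, about as far as the OE21 sets differed, while ID1 spanned 10.53 to 11.93 and CEACAM6 7.14 to 8.399.

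On single lists OE33 control 2 stood apart from the other 5 OE33 arrays. It was at 0.75 for the epidermal differentiation complex, 0.61 for the ATF4 response and 0.43 for lysosome and autophagy genes, and at -0.37 for S phase, -0.41 for mitosis and -0.32 for BMP targets, each from the mean of the 6 OE33 arrays. These departures lay partly in the direction of set A (lysosome, S phase, mitosis) and partly in that of set B (epidermal differentiation complex, BMP targets), and the score over all genes of control 2 was -0.02.

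**Figure D5:**
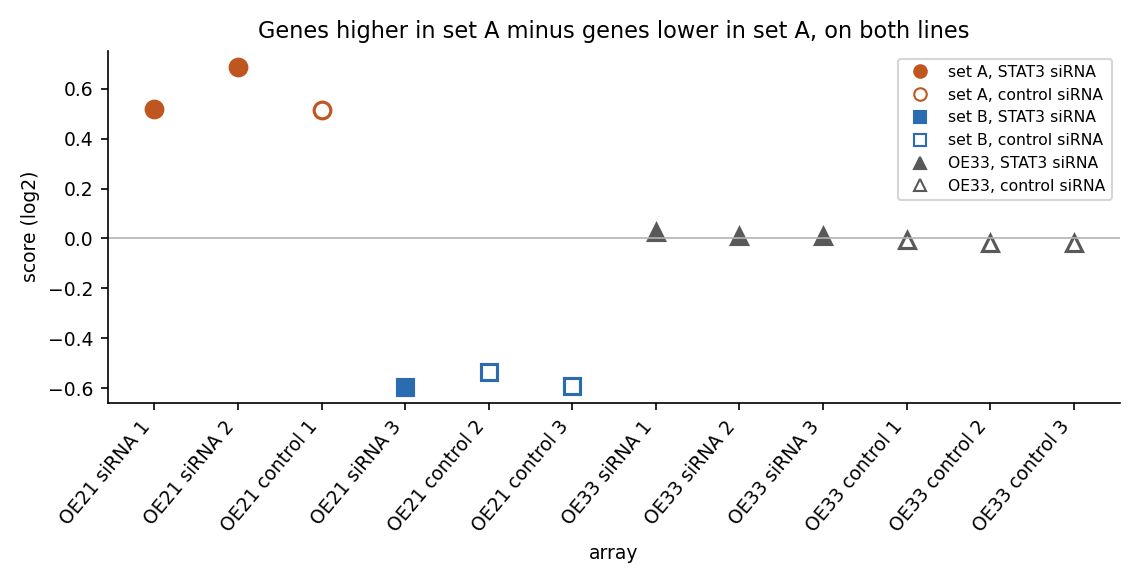
Mean log2 level of the genes higher in set A minus that of the genes lower in set A, per array, each gene measured from the mean of its line's 6 arrays. Circles are set A, squares set B and triangles OE33, filled for siRNA and open for control; the OE21 arrays lie at 0.52 or above or at -0.54 or below, and the OE33 arrays between -0.02 and 0.03.

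Technical measures of the arrays overlapped between the sets. Median raw intensity was 106.3 to 107.8 in set A and 104.9 to 108.05 in set B, the median of background probes 92.2 to 93.1 in set A and 91.4 to 93.5 in set B, and the number of detected probes 18983 to 19149 in set A and 18488 to 19117 in set B. Chromosome medians of the difference ran from -0.05 on chromosome 22 to 0.04 on chromosome 15, and 27.7% to 41.0% of a chromosome's genes did not overlap. The share without overlap was 22.5% in the dimmest of 4 equal groups of genes and 45.6% in the brightest. Where a gene without overlap had another detected probe, 1231 of 1408 such probes (87.4%) differed in the same direction. Second probes of DUSP6, PHLDA1, INSIG1 and MAD2L1 gave smaller differences, of -1.14, -0.91, 0.57 and -0.19, against -2.06, -1.50, 1.05 and -0.52 on the probes used above.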

How the data were processed

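Per the labels' protocols, RNA was extracted on columns, labelled as biotinylated cRNA and hybridised to Illumina BeadChips. Probe intensity was deposited by the authors on a linear scale, without normalisation between arrays, and each intensity has a deposited detection p-value. No label or header says how these p-values arose or which software read the arrays. A further deposited table of normalised intensity, whose method no label states, served as an alternative. It is linear and not centred (array medians 106.4 to 107.2), and each column followed its own array's raw values.

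Of 47323 probes 4 were left out for a missing value. Platform annotation named 1 gene for 30111 probes, several for 8 and none for 17202; 30074 matched by Entrez ID and 0 symbols changed. Intensities were corrected and quantile-normalised over all 12 arrays by limma 3.58.1 (its neqc function, R 4.3.3; background inferred from detection p-values, offset 16). Probes with detection p under 0.01 on at least 3 of 6 OE21 arrays were kept, and the brightest probe stood for a gene. Arrays number 3 a group, which limits precision, and p-values measure the spread between these arrays.

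Named genes were the 10 with the widest gap in each direction, among genes detected on all 3 arrays of the higher set, the 4 of each list with the widest gap among those without overlap, and STAT3 with the 3 smallest p in each direction of the siRNA fit with the set as a block; other genes named were chosen after their values were seen. The array sets and gene lists were chosen with earlier results of these data known. The siRNA contrast used limma's moderated test with Benjamini-Hochberg adjustment over 11179 genes, and the code was tested on simulated data. A gene undetected on all arrays of a set is given as a bound, from the lowest detected signal or its own level, whichever is higher, per array. Alternatives were no background correction, median scaling, OE21 arrays normalised alone, the authors' values, stricter and no detection filters, single probes, each array left out, array set or replicate number as block, all 12 arrays and array weights.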

Additional observations from a re-analysis of the deposited data

How the results depend on the processing

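The sets stayed on opposite sides of the first component in all 13 alternatives, its share being 51.0% to 61.0% with single arrays left out, and 0 lists with a median beyond 0.2 changed direction. List medians of set A minus set B moved as follows. Without background correction they were -0.41 for S phase, -0.51 for ribosome biogenesis, 0.10 for glycolysis, 0.19 for basal keratinocyte genes, 0.29 for glucose-sensing genes, -0.29 for metallothioneins, 0.13 for histones, 0.50 for BMP targets, -0.72 for EGF receptor signalling and -0.82 for the epidermal differentiation complex. With the authors' normalised values they were -0.41 for S phase, 0.12 for glycolysis, 0.20 for basal genes, 0.32 for glucose-sensing genes, 0.15 for histones, 0.51 for BMP targets, -0.76 for EGF receptor signalling and -0.81 for the epidermal differentiation complex. With detection on all 6 arrays they were -0.28 for G1, 0.45 for SREBP, 0.77 for glucose-sensing genes and 0.19 for TGF-beta, which turned its sign. With no detection filter they were -0.016 for G1, 0.37 for glucose-sensing genes, -0.23 for metallothioneins, 0.21 for histones, 0.11 for BMP targets and -0.19 for the epidermal differentiation complex. With every probe on its own they were 0.45 for glucose-sensing genes and -0.29 for STAT3 targets.

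With single arrays left out, the ranges were -0.028 to 0.050 for the unfolded protein response, -0.081 to 0.10 for p53 targets, 0.48 to 0.72 for glucose-sensing genes, -0.24 to -0.12 for G1, 0.11 to 0.23 for glycolysis, 0.34 to 0.42 for SREBP, 0.42 to 0.63 for hypoxia, -0.14 to -0.0026 for the ATF4 response, -0.18 to -0.018 for STAT3 targets, 0.22 to 0.44 for basal genes, -0.18 to 0.17 for TGF-beta, -0.53 to -0.16 for NF-kB and cytokine genes, -0.71 to -0.31 (without siRNA 3) for immediate-early genes, 0.25 (without control 3) to 0.53 for histones, -0.29 (without control 3) to 0.075 (without siRNA 3) for the cornified envelope list, -0.38 to 0.041 (without control 2) for mesenchymal genes, -0.013 to 0.081 for NRF2 targets and -0.010 (without control 1) to 0.12 for the respiratory chain.

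Of the differences of the 20 genes with the widest gaps, 208 values under the alternatives moved by less than the spread between arrays and 28 by more, all 28 without background correction or with the authors' values and all toward 0. They were 1.69 and 1.76 for SH2D3C, -1.23 and -1.26 for RNASE7, -1.30 and -1.35 for CCL3L3, -1.35 and -1.36 for CEACAM6, -1.33 and -1.34 for CRCT1 and -0.95 and -0.99 for LCE3E under these settings.

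In the siRNA comparison limma called 1 probe with every probe tested alone, 17 genes in a fit of all 12 arrays and 270 with array weights. Genes at an unadjusted p under 0.05 numbered 2150 with the set as a block, 3552 with array weights, 681 (without siRNA 1) to 1965 (without siRNA 3) with single arrays left out, with 769 without siRNA 2 and 752 without control 3, and 1063 to 2470 likewise with the block. STAT3 passed at -2.12 (limma adjusted p = 0.0222) with all 12 arrays and -2.29 (0.0264) with array weights, in a range of adjusted p from 0.0222 to 0.781. CRIP2 ranged from -1.19 to 0.035 with single arrays left out, reversed without siRNA 3, and reversed to 0.15 with array weights. With the replicate number as a block 0 genes were called and 1521 had an unadjusted p under 0.05; same-numbered siRNA and control arrays did not all deviate together (correlations 0.45, -0.40 and 0.50), and control 1 correlated better with siRNA 2 (0.65) than with siRNA 1. The cause of these changes was not tested. Dim genes, near background, limit the differences that can be read.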
